A study of Mus musculus with 6 samples.

Results

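The data describe 9 mouse genes whose products act against polycomb repression: the methyltransferases Kmt2a, Kmt2b, Kmt2c, Kmt2d, Setd1a, Setd1b and Ash1l, and the H3K27 demethylases Kdm6a and Kdm6b. They were taken by name from a table of 37991 Ensembl gene IDs, all 9 matched 1 ID, and all 9 passed the filter on low counts. Primordial germ cell-like cells (PGCLCs), a culture model of the earliest germ cells, had been made from C57BL/6 embryonic stem cells by way of epiblast-like cells and then grown as aggregates with the growth factors BMP2, SCF, EGF and LIF. Every library came from a line with floxed Ezh2 alleles and a tamoxifen-activated Cre recombinase (CreERT2). The Ezh2 KO group (Ezh2-/-, CreERT2, 3 libraries) received 4-hydroxytamoxifen in ethanol at the start of aggregation, and the Ctrl group (Ezh2f/f, CreERT2, 3 libraries) received ethanol alone. All were collected on day 4 after dissociation and sorting. Because only the Ezh2 KO cultures saw the drug, its own effects and those of the deletion cannot be told apart. The sources used here do not give the promoter that drives the recombinase, the sorting gate or the number of stem cell clones, nor do they state whether the replicates were separate inductions, so the p-values measure the spread between these libraries, part of which may be technical.

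Polycomb repressive complex 2 (PRC2), through Ezh2 or its paralog Ezh1, methylates lysine 27 of histone H3 and keeps developmental genes silent. The trithorax group works in the other direction. Kmt2a and Kmt2b (the MLL1/2 type), Kmt2c and Kmt2d (the MLL3/4 type) and Setd1a and Setd1b (the SET1 type) are the catalytic subunits of COMPASS complexes, which methylate lysine 4 of histone H3. Kmt2b places that mark at promoters of developmental genes in embryonic stem cells, Kmt2c and Kmt2d act at enhancers, and the SET1 enzymes at promoters of active genes. Ash1l methylates lysine 36 of histone H3, a mark that hinders PRC2, and Kdm6a and Kdm6b remove the methyl groups that PRC2 places. Kdm6a also sits in the MLL3/4 complexes and has been linked to reprogramming in mouse germ cells. The comparison of the 2 groups asks whether the genes for these opposing enzymes were transcribed differently once Ezh2 deletion had been induced.

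The paralogs of a pair encode closely related stretches of protein and, in the pairs printed here, do so with different base composition. They are given because GC content went along with how the levels of several members varied across libraries. Each is the 50-codon stretch of coding sequence in which the proteins of a pair match best without gaps, from the mouse transcripts of GENCODE M21 (build GRCm38), 5′ to 3′ on the coding strand, with G and C in capitals. Kdm6a lies on chromosome X (coding bases 3346 to 3495 shown) and Kdm6b on chromosome 11 (coding bases 4072 to 4221).
Kdm6a: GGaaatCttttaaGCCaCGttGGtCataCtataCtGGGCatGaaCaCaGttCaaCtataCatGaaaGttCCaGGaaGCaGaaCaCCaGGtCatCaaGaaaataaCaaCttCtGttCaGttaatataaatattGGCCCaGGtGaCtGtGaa
Kdm6b: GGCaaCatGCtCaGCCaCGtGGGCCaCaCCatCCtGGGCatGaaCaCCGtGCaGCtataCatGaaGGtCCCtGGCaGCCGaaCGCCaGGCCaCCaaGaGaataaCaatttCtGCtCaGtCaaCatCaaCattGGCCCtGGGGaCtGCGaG
In these stretches 49 of 50 codons encode the same residue, but 117 of 150 bases are the same and the GC content is 38.7% in Kdm6a and 56.7% in Kdm6b. Kmt2c lies on chromosome 5 (coding bases 13183 to 13332) and Kmt2d on chromosome 15 (coding bases 15247 to 15396).
Kmt2c: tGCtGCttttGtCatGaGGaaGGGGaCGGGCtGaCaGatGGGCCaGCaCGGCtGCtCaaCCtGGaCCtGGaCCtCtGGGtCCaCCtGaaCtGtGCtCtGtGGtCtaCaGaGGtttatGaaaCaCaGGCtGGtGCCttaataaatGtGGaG
Kmt2d: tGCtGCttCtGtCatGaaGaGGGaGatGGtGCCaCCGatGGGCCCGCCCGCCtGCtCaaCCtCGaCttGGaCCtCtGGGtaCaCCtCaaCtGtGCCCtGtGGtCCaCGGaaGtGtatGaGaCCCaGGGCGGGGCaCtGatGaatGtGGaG
Here 47 of 50 codons encode the same residue and 119 of 150 bases are the same, with a GC content of 54.7% in Kmt2c and 60.7% in Kmt2d. Over the whole coding sequence the GC content was 44.0% in Kdm6a and 61.7% in Kdm6b, and 47.3% in Kmt2c and 59.4% in Kmt2d. The other pairs were Kmt2a (chromosome 9, 52.4%) with Kmt2b (chromosome 7, 59.2%), and Setd1a (chromosome 7, 56.7%) with Setd1b (chromosome 5, 61.8%). The best-matching stretches of these pairs hardly differed in GC content, at 51.3% in Kmt2a and 50.7% in Kmt2b, and at 56.0% in Setd1a and 54.0% in Setd1b. Ash1l (chromosome 3), which has no partner among the 9, had 45.4%.

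Levels are given as CPM, the counts of a gene relative to the TMM-scaled total of its library, and folds as log2 of Ezh2 KO over Ctrl. Libraries held 27072150 to 49382146 counts, and the 9 genes had between 172 and 4295 reads in a library. Ezh2 itself was at 40.8, 67.1 and 70.0 CPM in the Ezh2 KO libraries and at 91.8, 78.1 and 95.3 CPM in the Ctrl libraries, lower in each Ezh2 KO library, with an unadjusted p of 0.0361 and an adjusted p of 0.976 in edgeR's quasi-likelihood test. The deleted exons are not named in the sources used here, and reads from exons outside them would be counted too, so this does not measure the enzyme that was left. The 10 germ cell markers looked at, among them Prdm1, Prdm14, Tfap2c, Dppa3 and Nanos3, were all read at 3.08 CPM or more in every library, and 8 of them were lower on average in Ezh2 KO (median log2 fold change -0.29 over the 10, and -0.28 over the 9 genes). Summed markers of other lineages lay at 0.716 to 0.936 CPM in Ezh2 KO and 1.95 to 2.87 CPM in Ctrl for neuroectoderm, at 1.12 to 2.22 CPM in Ezh2 KO and 2.87 to 5.73 CPM in Ctrl for endoderm, and at 2.39 to 5.24 CPM in Ezh2 KO and 5.59 to 8.21 CPM in Ctrl for fibroblasts. The sums of the mesoderm and trophoblast lists overlapped between the groups, at 17.2 to 23.0 and 32.0 to 46.1 CPM in Ezh2 KO and at 18.9 to 21.7 and 28.6 to 46.0 CPM in Ctrl. Within these lists single genes stood apart: Msx1 (mesoderm) was at 0.401, 0.347 and 0.247 CPM in Ezh2 KO and 2.58, 6.88 and 0.814 CPM in Ctrl, with an adjusted p of 0.976 in edgeR and 0.0138 in DESeq2. In the trophoblast list the groups did not overlap for Cdx2 (lower in Ezh2 KO) or Elf5 (higher in Ezh2 KO), with an adjusted p of 0.976 for both in edgeR. Of the 31 entries in these 5 lists, 1 (Foxf1) had no read in any library, and Sox1 and Pou3f2 were not analysed here. The part of these germ cell and other-lineage transcripts in the values of the 9 genes was not tested, and in bulk samples fewer cells of a type and less RNA per cell cannot be told apart.

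For none of the 9 genes did the difference between Ezh2 KO and Ctrl pass the test in the fit over all 16420 tested genes. EdgeR called 0 of 9 at an adjusted p under 0.05, as it called 0% of all tested genes, and 0 of 9 had an unadjusted p under 0.05, against 2.80% of all tested genes. DESeq2 also called 0 of 9, where it called 0.124% of the genes it gave an adjusted p, and limma-voom called 0 of 9 and 0% of all. At an unadjusted p under 0.05 both had 0 of 9, against 3.89% of all tested genes in DESeq2 and 2.84% in limma-voom. In none of the 9 were the 3 Ezh2 KO libraries all on one side of the 3 Ctrl libraries, which was the case in 8.09% of all tested genes. Of the log2 fold changes 7 were negative and 2 positive, with a median of -0.28, while 48.7% of all tested genes were negative, with a median of 0.01. In 5 of the 9 (Kmt2a, Kmt2c, Kmt2d, Ash1l and Kdm6a) the 95% interval lay within a 2-fold change in either direction, as it did in 53.7% of all tested genes.

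**Figure D1:**
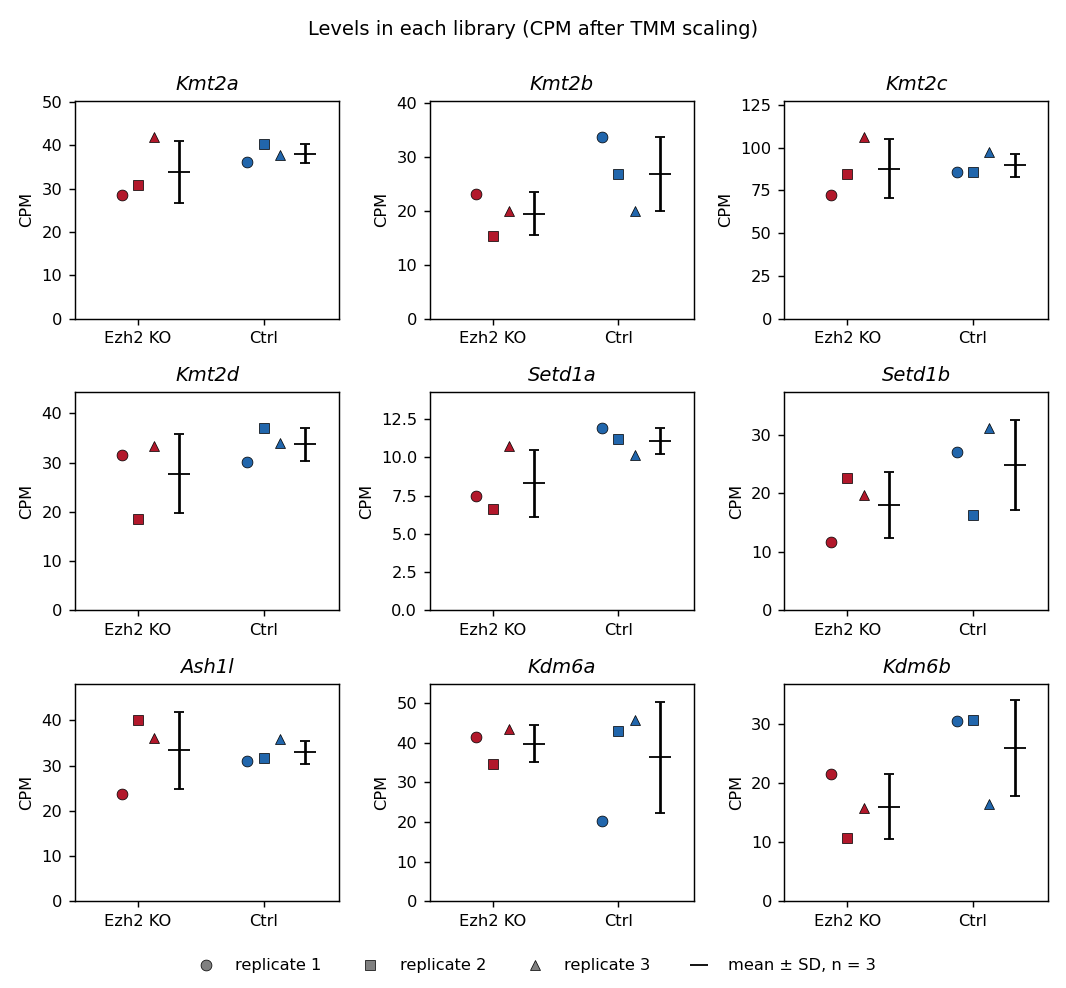
Level of each of the 9 genes (vertical axis, CPM, starting at 0) in the 3 Ezh2 KO and the 3 Ctrl libraries, with symbols for the replicate number and bars for the mean ± SD (n = 3). The groups overlap in every panel, and the lowest Kdm6a value is that of Ctrl replicate 1, at 20.1 CPM.

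Among the MLL1/2-type enzymes, Kmt2a had 28.5, 30.7 and 41.9 CPM in Ezh2 KO replicates 1 to 3 and 36.1, 40.3 and 37.7 CPM in Ctrl replicates 1 to 3. Ezh2 KO replicate 3 was above every Ctrl library and the other 2 were below them all. Its level was 88.6% of Ctrl, with a 95% interval of 63.8% to 123%. For Kmt2b the values were 23.2, 15.3 and 20.0 CPM in Ezh2 KO and 33.7, 26.8 and 19.9 CPM in Ctrl. The lowest was Ezh2 KO replicate 2, and replicates 3 of the 2 groups were nearly equal. The log2 fold change of Kmt2b was -0.46 ± 0.27 SE (adjusted p = 0.976 in edgeR), or 72.7% of Ctrl with an interval of 47.7% to 111%. It ran from -0.66 without Ctrl replicate 3 to -0.26 without Ctrl replicate 1, and Kmt2a from -0.36 without Ezh2 KO replicate 3 to -0.07 without Ezh2 KO replicate 1.

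Of the MLL3/4-type enzymes, Kmt2c was the most abundant of the 9 by CPM. It stood at 72.0, 84.6 and 106 CPM in Ezh2 KO and at 85.6, 85.7 and 97.3 CPM in Ctrl, so that the Ezh2 KO libraries lay on both sides of Ctrl. Its means were 87.6 ± 17.2 CPM in Ezh2 KO and 89.5 ± 6.69 CPM in Ctrl (SD, n = 3 each), with a log2 fold change of -0.03 and an interval of -0.45 to 0.39. With 1 library left out the log2 fold change of Kmt2c ran from -0.19 (without Ezh2 KO replicate 3) to 0.090 (without Ezh2 KO replicate 1). Kmt2d, its paralog, had 31.4, 18.5 and 33.4 CPM in Ezh2 KO and 30.2, 36.9 and 33.9 CPM in Ctrl. Ezh2 KO replicate 2 alone lay apart from the other 5 libraries. With that library left out Kmt2d had a log2 fold change of -0.04, and with it -0.28.

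The SET1-type enzymes had lower mean levels in Ezh2 KO, with groups that overlapped. Setd1a was the least abundant of the 9 by CPM, with 7.49, 6.64 and 10.8 CPM in Ezh2 KO and 11.9, 11.2 and 10.2 CPM in Ctrl. Only Ezh2 KO replicate 3 reached the Ctrl range. In GENCODE M21 its exons share 3523 bases with Gm49388 on the same strand, a gene not analysed here. The log2 fold change was -0.41 ± 0.26 SE, with an interval of -1.02 to 0.19 and an adjusted p of 0.976 in edgeR. It was -0.65 without Ezh2 KO replicate 3 and -0.26 without Ezh2 KO replicate 2. Setd1b varied more within each group, at 11.6, 22.6 and 19.7 CPM in Ezh2 KO and 27.05, 16.2 and 31.1 CPM in Ctrl. Its lowest library was Ezh2 KO replicate 1 and the next was Ctrl replicate 2. The log2 fold change was -0.47 ± 0.33 SE, with an interval of -1.23 to 0.30, and with 1 library left out it ran from -0.70 (without Ctrl replicate 2) to -0.23 (without Ezh2 KO replicate 1).

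Ash1l stood at 23.7, 40.1 and 36.2 CPM in Ezh2 KO and at 31.1, 31.8 and 35.9 CPM in Ctrl. The Ezh2 KO libraries held both its highest and its lowest value, and the log2 fold change was 0.02 with an interval of -0.52 to 0.56. It was 0.21 without Ezh2 KO replicate 1 and -0.12 without Ezh2 KO replicate 2. Exons of Ash1l share 352 bases with Dap3, which lies on the other strand and was at 172 to 206 CPM in Ezh2 KO and 183 to 214 CPM in Ctrl. As no use of strand is stated, reads of the shared bases cannot be assigned, and the level of Ash1l is uncertain to that extent.

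Of the demethylases, Kdm6b had the largest spread within groups of the 9 genes. It stood at 21.7, 10.7 and 15.9 CPM in Ezh2 KO replicates 1 to 3 and 30.5, 30.8 and 16.5 CPM in Ctrl replicates 1 to 3. Each Ezh2 KO library was lower than the Ctrl library of the same number, at 71.0%, 34.6% and 96.3% of it, but Ctrl replicate 3 lay below Ezh2 KO replicate 1. Its mean was 16.1 ± 5.50 CPM in Ezh2 KO and 25.9 ± 8.15 CPM in Ctrl (SD, n = 3 each), a log2 fold change of -0.69 ± 0.34 SE with an interval of -1.47 to 0.10 and an adjusted p of 0.976 in edgeR. In the fit that takes replicate number as a block, the interval was -1.36 to -0.01, the unadjusted p 0.0474 and the adjusted p 0.544, so that 1 of the 9 genes had an unadjusted p under 0.05, where 9.10% of all tested genes did in that fit and 3.12% did while lower in Ezh2 KO. With Ezh2 KO replicate 2 left out Kdm6b had a log2 fold change of -0.46, and with Ctrl replicate 1 left out as well -0.33. It was -0.96 without Ezh2 KO replicate 1 and -0.95 without Ctrl replicate 3. There the unadjusted p was 0.0262 and 0.0285 and the adjusted p 0.543 and 0.931 in edgeR. The share of all tested genes with an unadjusted p under 0.05 in these fits is not given here. The antisense gene Kdm6bos, which shares 286 bases with its exons, was at 0.198 to 0.508 CPM in Ezh2 KO and 0.177 to 0.354 CPM in Ctrl.

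Kdm6a, on the X chromosome, stood at 41.4, 34.5 and 43.4 CPM in Ezh2 KO and at 20.1, 42.9 and 45.7 CPM in Ctrl. Ctrl replicate 1 alone was low, and the other 5 libraries lay between 34.5 and 45.7 CPM. The log2 fold change of Kdm6a was 0.13 with an interval of -0.58 to 0.85, and without Ctrl replicate 1 it was -0.16. Uty, the Y-linked paralog with little demethylase activity, had 13.6, 20.7 and 19.5 CPM in Ezh2 KO and 7.38, 19.2 and 22.9 CPM in Ctrl, and so was also lowest in Ctrl replicate 1. Reads of Uty and of Kdm5d, another Y-linked gene, were present in every library. Since Kdm6a and Uty are alike in sequence, some reads may have been split between them.

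The 3 pairs of same-numbered libraries differed in how many members were lower. In replicates 1 and 2, 7 of the 9 genes were lower in Ezh2 KO, with a median of 76.3% and 76.2% of the Ctrl library, and in replicate 3, 4 of 9 were, with a median of 100.2%. Ash1l was lower in 1 of 3 pairs, Kdm6b in 3 of 3 and each of the other 7 in 2 of 3. The share and median over all tested genes in these pairs are not given here. The counts therefore cannot show whether the 9 genes differed from other genes. Within groups 7 of the 9 genes were spread more than the median gene. The pooled SD of log2 CPM ran from 0.21 in Kmt2c to 0.51 in Kdm6b, and 2 of the 9 (Kmt2a and Kmt2c) were under 0.26, the median of the 9217 genes whose mean log2 CPM was 3 or more.

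**Figure D2:**
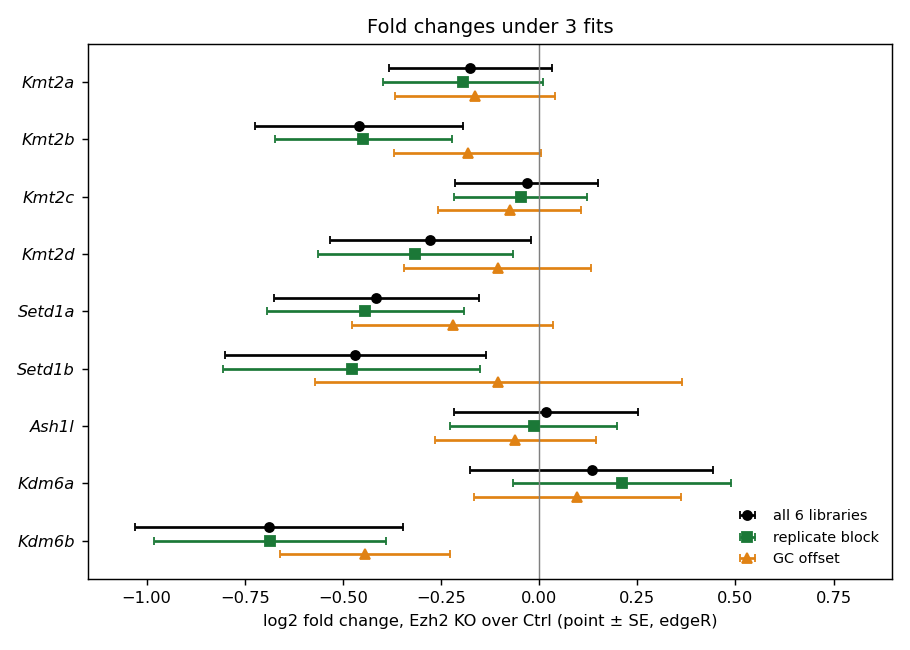
Log2 fold change of Ezh2 KO over Ctrl (horizontal axis, point ± SE from edgeR) for each gene in the fit to all 6 libraries, in the fit with the replicate number as a block, and in the fit with an offset for transcript GC content. The points of Kmt2b, Kmt2d, Setd1a, Setd1b and Kdm6b lie nearer 0 with the offset, and the block moves them little.

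The base composition of the transcripts went along with these values. In Ezh2 KO replicate 2, GC-rich members were low relative to the other 2 Ezh2 KO libraries: the difference in log2 CPM was -0.80 for Kdm6b, -0.81 for Kmt2d, -0.49 for Kmt2b and -0.43 for Setd1a. Among members with less GC it was -0.30 for Kdm6a, -0.05 for Kmt2c, -0.17 for Kmt2a and 0.45 for Ash1l. Setd1b went the other way, at 0.58, although its transcript has 59.0% GC. Kdm6a also departed from the relation, being low there with the lowest GC content of the 9, at 42.5%. Over the 9 genes Spearman's rho between this difference and transcript GC content was -0.47, and over 9036 genes with a mean log2 CPM of 3 or more and a known GC content it was -0.49, where all points share the same libraries and genes are not independent replicates. In Ctrl replicate 1, set against the other 2 Ctrl libraries, the relation had the opposite sign, with a rho of 0.80 over the 9 genes and 0.57 over all those genes. The differences there ran from -1.13 for Kdm6a to 0.54 for Kmt2b. Kmt2d, with 58.4% GC, departed from the relation in Ctrl replicate 1, at -0.23.

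**Figure D3:**
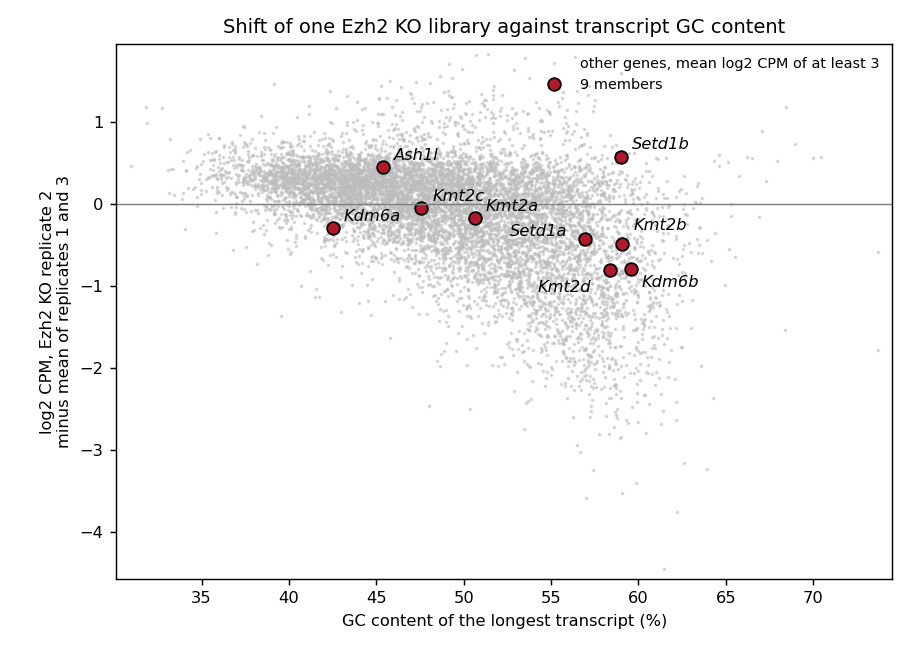
Difference in log2 CPM between Ezh2 KO replicate 2 and the mean of Ezh2 KO replicates 1 and 3 (vertical axis) against the GC content of the longest transcript in percent (horizontal axis), for the 9 genes in red and all other genes whose mean log2 CPM was 3 or more in grey. Kmt2b, Kmt2d, Setd1a and Kdm6b lie at the GC-rich end below 0, and Setd1b lies above 0.

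With an offset for GC content fitted in each library, the fold changes of the GC-rich members shrank. The log2 fold change of Kmt2b was -0.18 with the offset and -0.46 without it, that of Setd1b -0.10 and -0.47, that of Kmt2d -0.11 and -0.28, that of Setd1a -0.22 and -0.41, and that of Kdm6b -0.44 and -0.69. The median over the 9 genes was -0.11 with the offset and -0.28 without it, while the median of all tested genes was 0.01 in both. Kmt2a and Kmt2c were at -0.16 and -0.07 with it. Kdm6b had the lowest value under both settings, with an unadjusted p of 0.0721 with the offset and 0.0776 without it in edgeR. Of the 9 genes, 8 were negative with the offset and 7 without it. The SE of Setd1b was 0.47 with the offset and 0.33 without it.

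Levels per kilobase of the longest transcript allow only roughly for the length of a gene. By them the order of the mean level over the 6 libraries was Kdm6a at 6.40, Kmt2c at 5.92, Kdm6b at 3.16, Ash1l at 2.85, Kmt2b at 2.73, Setd1b at 2.41, Kmt2a at 2.18, Kmt2d at 1.55 and Setd1a at 1.49 CPM per kilobase. Neighbours in this order overlapped between libraries except Kmt2c and Kdm6b, whose values did not, and with the length of all exons joined these overlapped too and Ash1l, Kmt2b, Setd1b and Kmt2a changed places. The mean levels of the PRC2 methyltransferases were higher per kilobase of the longest transcript. Ezh2 was at 21.3 ± 5.79 CPM per kilobase in Ezh2 KO and 31.7 ± 3.26 in Ctrl, and Ezh1 at 7.97 ± 4.35 in Ezh2 KO and 10.0 ± 2.01 in Ctrl (SD, n = 3 each). For Ezh1 this depended on the length used. With all exons joined Ezh1 averaged 4.50 in Ezh2 KO, below Kdm6a at 4.74. In Ctrl it averaged 5.67, above Kdm6a at 4.33.

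The balance within pairs was described by the ratio of per-kilobase levels. Kmt2a over Kmt2b was 0.632, 1.03 and 1.08 in Ezh2 KO and 0.551, 0.774 and 0.975 in Ctrl, lowest in replicate 1 of both groups. Kmt2c over Kmt2d was 3.03, 6.06 and 4.21 in Ezh2 KO and 3.75, 3.07 and 3.80 in Ctrl, always in favour of Kmt2c. Kdm6a over Kdm6b was 2.14, 3.63 and 3.06 in Ezh2 KO and 0.740, 1.56 and 3.10 in Ctrl. Ctrl replicate 1 was the only library with more Kdm6b than Kdm6a. Setd1b over Setd1a had nearly the same mean in both groups, 1.65 ± 0.731 in Ezh2 KO and 1.66 ± 0.590 in Ctrl (SD, n = 3 each). With all exons joined as the length, Kmt2a over Kmt2b averaged 1.02 in Ezh2 KO and 0.858 in Ctrl, and Kdm6a over Kdm6b 2.18 in Ezh2 KO and 1.33 in Ctrl.

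**Figure D4:**
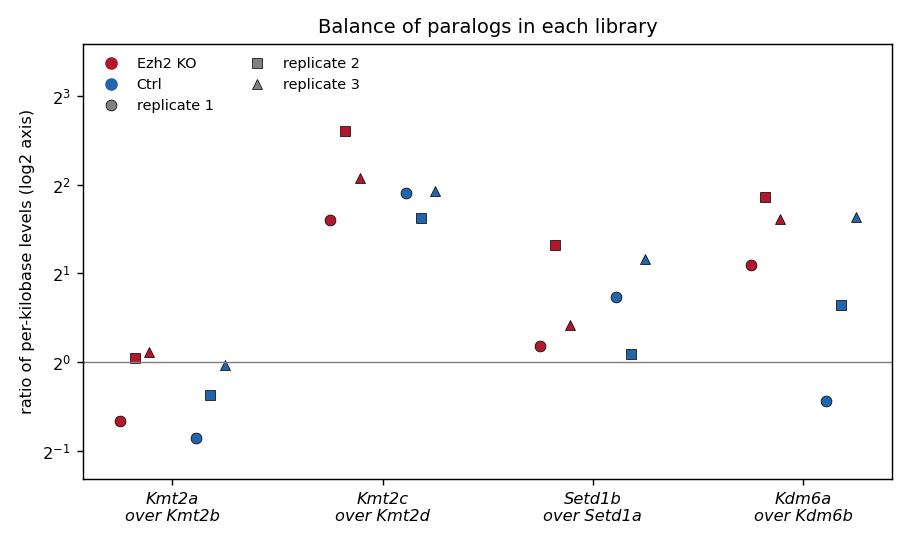
Ratio of per-kilobase levels within each paralog pair (vertical axis, log scale) in the 3 Ezh2 KO and the 3 Ctrl libraries, with symbols for the replicate number. The groups overlap in all 4 pairs, and Kmt2c exceeds Kmt2d in every library.

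Summed per kilobase, the 6 H3K4 methyltransferases were at 13.3, 13.8 and 17.6 CPM per kilobase in Ezh2 KO and 18.3, 16.8 and 17.9 in Ctrl. The 2 demethylases together were at 10.2, 7.41 and 9.70 in Ezh2 KO and 7.98, 11.9 and 10.2 in Ctrl. Set against the sum of Ezh1 and Ezh2, the methyltransferases gave ratios of 0.488, 0.490 and 0.546 in Ezh2 KO and 0.407, 0.440 and 0.425 in Ctrl, so that the Ezh2 KO libraries were all higher. With all exons joined these ratios were 0.852, 0.918 and 1.02 in Ezh2 KO and 0.750, 0.820 and 0.794 in Ctrl. The divisor holds the gene that was targeted, and the sum of the methyltransferases itself overlapped between the groups. For the demethylases the same ratio was 0.374, 0.262 and 0.302 in Ezh2 KO and 0.178, 0.311 and 0.242 in Ctrl, with overlap.

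Genes that work with or against these enzymes were read from the same fit, as 8 lists with 49 genes, of which 48 were tested. EdgeR called 0 of them, and so did limma-voom and DESeq2, which called 0.124% of all genes. At an unadjusted p under 0.05 edgeR had 1, the targeted gene Ezh2. Of all tested genes 2.80% passed in either direction, and 1.25% passed and were lower in Ezh2 KO. Of the 48, 35 had a negative log2 fold change, 72.9% against 48.7% of all tested genes, and the median was -0.14. With the GC offset the median of the 48 was also -0.14. In 4 genes all Ezh2 KO libraries were lower than all Ctrl libraries and in 1 they were all higher, where 4.03% and 4.07% of all tested genes were.

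No gene of the shared COMPASS core passed the test. Wdr5, which holds the complex on histone tails, was at 170 ± 27.1 CPM in Ezh2 KO and 181 ± 22.2 CPM in Ctrl (SD, n = 3 each), and Dpy30, which helps the complex methylate, at 249 ± 37.4 CPM in Ezh2 KO and 216 ± 8.74 CPM in Ctrl. Dpy30 was higher in each Ezh2 KO library, with a log2 fold change of 0.20 and an adjusted p of 0.976 in edgeR. The median of the 4 core genes was -0.04, with 2 positive and 2 negative. Among 11 subunits outside the shared core the median was -0.17 and 8 were negative. The smallest p were those of Wdr82 (-0.26 ± 0.19 SE) and Cxxc1 (-0.44 ± 0.39 SE), both of SET1 complexes.

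The H3K4 demethylases, which erase the mark of the COMPASS enzymes, had 3 positive and 3 negative log2 fold changes, with a median of -0.07. Kdm5b had the smallest p, at 286, 219 and 313 CPM in Ezh2 KO and 302, 323 and 368 CPM in Ctrl, where the highest Ezh2 KO library exceeded the lowest Ctrl library. Its log2 fold change was -0.28 ± 0.17 SE, and that of Kdm1b, the next, 0.22 ± 0.27 SE. Of the 4 H3K36 methyltransferases Nsd1 and Setd2 had the smallest p (-0.12 and 0.23), and the median was -0.03. Among the PRC2 core genes, Ezh1 was next after Ezh2, at -0.33 ± 0.38 SE.

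Genes of histone acetylation and of BAF remodelling lay mostly below 0. All 5 of the first list were negative, with a median of -0.26. Kat8, an acetyltransferase of histone H4, was at 39.3, 34.4 and 37.4 CPM in Ezh2 KO and 52.5, 43.5 and 44.6 CPM in Ctrl. The groups did not overlap, and the log2 fold change was -0.34 ± 0.18 SE with an adjusted p of 0.976 in edgeR. Of 14 BAF and PBAF genes, 13 were tested, 12 were negative and the median was -0.24. Smarca2, an ATPase of the complex, had the smallest p at the low level of 1.82, 1.85 and 2.08 CPM in Ezh2 KO and 2.41, 3.30 and 2.72 CPM in Ctrl, and Smarcb1, a core subunit, followed at -0.25 ± 0.17 SE. With the GC offset the median of the BAF and PBAF list was -0.16 and that of the acetylation list -0.16. The median of BAF and PBAF genes was -0.11 without Ctrl replicate 1, -0.37 without Ctrl replicate 3, -0.15 without Ezh2 KO replicate 2 and -0.03 without both Ezh2 KO replicate 2 and Ctrl replicate 1. That of the acetylation genes was -0.10 without Ezh2 KO replicate 2 and -0.17 without Ctrl replicate 1. It was -0.32 without Ctrl replicate 3 and -0.34 without Ezh2 KO replicate 3.

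**Figure D5:**
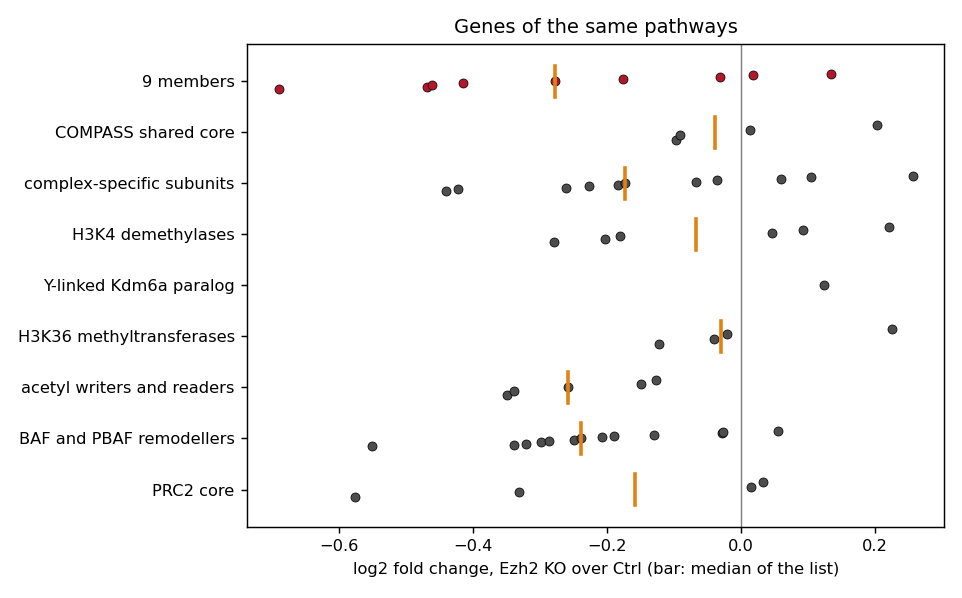
Log2 fold change of Ezh2 KO over Ctrl (horizontal axis) for the 9 genes in red and the tested genes of the 8 lists in grey, with a bar at the median of each list of 2 or more. The medians lie between -0.28 for the 9 genes and -0.03 for the H3K36 methyltransferases.

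The genes whose profile over the 6 libraries was most like that of a member were found by the root mean square difference of centred log2 CPM, among 9216 other genes whose mean log2 CPM was 3 or more. For none of the 9 was the nearest gene another member, which says little, as members are few among so many genes. The closest member ranked from 52nd (for Kmt2a) to 2477th (for Kdm6a) among the 9216. The nearest were Rrbp1 for Kmt2a, Patz1 for Kmt2b, Rufy2 for Kmt2c, Rad54l2 for Kmt2d, Zdhhc18 for Setd1a, Ezh2 for Setd1b, Tmem165 for Ash1l, Ankrd13c for Kdm6a and Slc1a4 for Kdm6b, at differences of 0.03 to 0.22 on the log2 scale. The largest of these was that of Setd1b. Among paralogs the difference was larger, with Kdm6b and Kdm6a at 0.78 and Setd1a and Setd1b at 0.46. The closest members were Kmt2a and Kmt2c, at 0.12. For comparison, the median difference of a member from all 9216 genes ran from 0.29 for Kmt2c to 0.59 for Kdm6b.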

How the data were processed

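RNA was sequenced from 6 PGCLC libraries of day 4. The values deposited by the authors are raw counts, 1 whole number for each Ensembl gene and library. Per the submitters' processing notes, the tools were featureCounts, TopHat2 2.0.11, Trimmomatic 0.33 and CASAVA 1.8.4, and the builds NCBIM37 and mm9. The sources used here give neither their settings, strand included, nor the annotation version. Symbols, transcript lengths, GC content and coding sequences came from GENCODE M21 (GRCm38) by gene ID, and 32919 of 37991 IDs had a symbol. Because the builds differ, no genome coordinates are printed.

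Genes passing filterByExpr (minimum count 10) numbered 16420. They were scaled by TMM and tested with the robust quasi-likelihood F-test of edgeR 4.0.16 (R 4.3.3), group as the only term, two-sided, Benjamini-Hochberg over all tested genes, threshold 0.05. The fit was tested on simulated data. SEs derive from the F statistic. Profiles and spreads use log2 CPM (prior count 2). The GC offset is a loess (span 0.5) of each library's log2 CPM deviations on transcript GC content, fitted where the mean log2 CPM was over 2. Alternatives were the size factors of DESeq2, DESeq2 1.42.0 and limma-voom (limma 3.58.1) on the same genes, no filter, a stricter one (1 CPM or more in 3 libraries), the replicate block, the GC offset, both together, thresholds of 0.01 and 0.10, and each library left out. Removal of both libraries that ended the first principal component (Ezh2 KO replicate 2 and Ctrl replicate 1) was added after seeing the data.

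Same-numbered libraries deviated together from their group means (correlation across genes 0.58, 0.37 and 0.19 for replicates 1 to 3). Ezh2 KO replicate 2 with Ctrl replicate 3 had 0.30, above the value of replicates 3. The other unlike-numbered pairs were negative, from -0.52 to -0.02. Deviations from a group mean cancel within the group, so positive values in some pairs force negative values in others. The negative values are thus not separate evidence of a pairing. The numbers were taken to pair the samples, but this pairing was read from the same counts that the block fit uses. Where the pairing comes from is not stated. The 9 genes, the lists and the tests were chosen with earlier results of these data known. Named genes are the 9, Ezh2, the 2 tested genes of smallest p in each list and any called, and each member's nearest profile, except 1 listed gene that is not reported here; Wdr5, Uty, Kdm5c, Kdm5d, Men1, Msx1, Cdx2, Elf5 and Neurog1 were singled out after their values were seen.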

Additional observations from a re-analysis of the deposited data

How the results depend on the processing

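The count of called genes among the 9 was 0 under all 18 alternatives run. So was that among the 48 tested genes of the 8 lists of genes that work with or against them. Of the 31 tested cell type markers DESeq2 called 1 (Msx1) and DESeq2 with the replicate block 2 (Msx1 and Neurog1). Over all tested genes edgeR called 0, limma-voom 0, DESeq2 20 and DESeq2 with the replicate block 50, and the other alternatives called 0. Of 160 fold changes of the 9 genes and Ezh2 under alternatives, 144 kept their sign and stayed on the same side of the threshold, and 16 changed sign, all within Kmt2c, Ash1l and Kdm6a. Ash1l was at -0.021 in limma-voom, -0.018 without the filter, -0.022 in DESeq2 with the replicate block, -0.014 with the replicate block in edgeR, -0.061 with the GC offset, -0.082 with both, and -0.17 without both libraries at the ends of the first component, where Kdm6a was at -0.058. With one library left out, Kmt2c ran from -0.19 to 0.090, Ash1l from -0.12 to 0.21 and Kdm6a from -0.16 to 0.30. The cause of these changes was not tested. Kdm6b had an unadjusted p under 0.05 in 4 of 16 fits, with adjusted p from 0.538 to 1.000 over them all. These fits share libraries and are not separate tests. Of the 4, the share of all tested genes under 0.05 is given here only for the edgeR block fit, at 9.10%. The block changed no call among the 9. The biological coefficient of variation was 30.6%, or 22.7% with the block, and the median half-width of a 95% interval was 0.52 on the log2 scale for genes whose mean log2 CPM was 3 or more.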

Other observations

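Some genes that work with or against the 9 enzymes varied between libraries more than the enzymes did. Kdm5c, an X-linked H3K4 demethylase, had 91.7, 12.0 and 37.4 CPM in Ezh2 KO replicates 1 to 3 and 65.7, 65.5 and 28.7 CPM in Ctrl replicates 1 to 3. Men1, which joins the MLL1/2-type complexes, had 84.4, 17.4 and 42.6 CPM in Ezh2 KO and 85.1, 64.5 and 43.8 CPM in Ctrl, again lowest in Ezh2 KO replicate 2. Kdm5d, the Y-linked relative of Kdm5c, was lowest in Ctrl replicate 1, at 5.09 CPM, as were Kdm6a and Uty. Ezh2 over Ezh1, per kilobase of the longest transcript, was 1.15, 5.79 and 3.57 in Ezh2 KO and 2.75, 2.77 and 4.29 in Ctrl. With all exons joined it was 0.849, 4.27 and 2.64 in Ezh2 KO and 2.03, 2.05 and 3.16 in Ctrl.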
